A study of Rattus norvegicus with 23 samples.

Results

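Spon2, Vwc2, Fam19a2, Has2 and Gng4 are 5 rat genes whose messenger RNA was far lower in differentiating CG4 cells that carried added Nkx2.2 than in cells with the control vector. They were chosen by the deposited log2 fold changes of that contrast, as large falls under these names, out of 32552 gene identifiers counted in these cells. The fall itself is therefore given as a description, with no test. The files list them as ENSRNOG00000006033 (Spon2), ENSRNOG00000049076 (Vwc2), ENSRNOG00000004180 (Fam19a2), ENSRNOG00000004854 (Has2) and ENSRNOG00000047080 (Gng4). Spon2, Has2 and Vwc2 were listed in all 23 libraries of the series, among 15219 shared identifiers. Gng4 and Fam19a2 were listed in the 12 libraries of differentiating CG4 cells and were not analysed here in the other groups.

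CG4 is an immortalized cell line derived from rat brain oligodendroglia. All 3 differentiating CG4 groups had 4 libraries each and were transduced with a pCAG vector that also expresses EGFP. The vector held T7-tagged Nkx2.2 in the Nkx2.2 group, myc-tagged Zfp488 in the Zfp488 group and EGFP alone in the control group. These cells were kept for 3 days in SATO medium with high T3 and T4 and CNTF. The other groups were wild-type proliferating CG4 cells (3 libraries), and wild-type primary rat oligodendroglia after 3 days of the same differentiation or while proliferating (4 libraries each). Proliferating cells of both kinds were kept in medium with bFGF and PDGF-AA, and primary cells came by shake-off from mixed glial cultures. The added factors are driven by a strong general promoter in a single cell line, and the labels name no sorting of transduced cells. The titles call the libraries of a group biological replicates without saying what separates them, so p-values measure the spread between these libraries.

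Nkx2.2 is a homeodomain transcription factor of the oligodendrocyte lineage. It can repress genes through Groucho/TLE co-repressors and takes part in the step from progenitor to differentiating oligodendrocyte. Zfp488 is a zinc finger regulator of the same lineage. Spon2 (mindin), Vwc2 (brorin) and Fam19a2 (also named Tafa2) encode secreted proteins. Has2 encodes a membrane enzyme that makes hyaluronan, a matrix polysaccharide that slows oligodendrocyte maturation where it builds up in demyelinated tissue. Gng4 encodes a gamma subunit of heterotrimeric G proteins, which carry signals from membrane receptors.

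Promoter sequences are shown because the 5 genes share their direction with added Nkx2.2, and homeodomain proteins of its class bind sites with the core AAGTG. RefSeq gave the 250 bases before the annotated start on build GRCr8 for 4 of the 5 genes, and Has2 was without an entry. The counts were made on build rn6, so these positions are those of GRCr8. AAGTG was searched on both strands, where the other strand reads CACTT, and capitals mark a match.
Gng4: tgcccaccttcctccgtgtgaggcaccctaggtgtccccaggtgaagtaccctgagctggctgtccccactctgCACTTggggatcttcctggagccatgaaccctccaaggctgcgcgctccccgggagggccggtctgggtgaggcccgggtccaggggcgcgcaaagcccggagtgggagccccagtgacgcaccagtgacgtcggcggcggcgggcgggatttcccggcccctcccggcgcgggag
Spon2: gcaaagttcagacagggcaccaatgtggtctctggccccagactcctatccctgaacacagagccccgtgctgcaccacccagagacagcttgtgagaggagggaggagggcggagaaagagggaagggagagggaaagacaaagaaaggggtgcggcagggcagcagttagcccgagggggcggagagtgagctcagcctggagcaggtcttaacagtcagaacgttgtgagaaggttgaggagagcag
Vwc2: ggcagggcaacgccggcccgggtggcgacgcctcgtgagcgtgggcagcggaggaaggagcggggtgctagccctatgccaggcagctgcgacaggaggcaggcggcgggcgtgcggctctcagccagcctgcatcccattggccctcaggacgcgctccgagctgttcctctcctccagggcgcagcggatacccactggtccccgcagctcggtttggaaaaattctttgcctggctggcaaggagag
Fam19a2: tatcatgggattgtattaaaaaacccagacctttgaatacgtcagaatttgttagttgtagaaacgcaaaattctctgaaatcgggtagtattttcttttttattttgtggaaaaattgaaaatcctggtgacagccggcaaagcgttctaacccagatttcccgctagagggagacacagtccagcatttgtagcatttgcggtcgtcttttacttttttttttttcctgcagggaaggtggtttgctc
The Gng4 promoter (chr17:93432945-93433194, plus strand) held 1 match, 176 bases before the start, which also fits the longer form CAAGTG. The promoters of Spon2 (chr14:81736466-81736715), Vwc2 (chr14:89897834-89898083) and the first of 4 annotated starts of Fam19a2 (chr7:60827735-60827984), all on the plus strand, held none. The other 3 starts of Fam19a2 held none either. AAGTG occurred in 40.6% and CAAGTG in 11.7% of 33469 RefSeq promoters of the same length, and a match is a description and not a binding site. The G and C content was 71.2% for Gng4, 68.8% for Vwc2, 59.2% for Spon2 and 39.2% for Fam19a2, against a median of 51.2% over all promoters.

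Library totals were 31112360 to 40854053 counts in the Nkx2.2 group, 29906831 to 43307908 in the Zfp488 group and 39268564 to 49206479 in the control group. They were 32454992 to 42318101 in proliferating CG4 cells, 22624183 to 36301186 in differentiating primary cells and 20063345 to 33130502 in proliferating primary cells. Levels are in CPM, the read counts scaled with TMM to a common library size, which is not corrected for gene length. The introduced genes checked the labels. Nkx2-2 averaged 1621 ± 311 CPM in Nkx2.2 cells, 140 ± 35.0 CPM in Zfp488 cells and 270.5 ± 41.5 CPM in control cells (SD, n = 4 each). Zfp488 averaged 167 ± 29.0 CPM in Zfp488 cells and 42.4 ± 11.3 CPM in control cells. All 8 oligodendroglial markers on the list used were present in every group. Sox10, a lineage regulator, averaged 2019 CPM in differentiating and 557 CPM in proliferating primary cells, with the CG4 groups between them.

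With added Nkx2.2 each of the 5 genes was lower in all 4 libraries than in any of the 4 control libraries. Of 14811 genes tested, 7.41% had every Nkx2.2 library below every control library. This share is given as background to a choice made on this contrast, and nothing is read from it. Mean levels in Nkx2.2 cells were 15.7% of the control mean for Spon2, 18.2% for Has2, 20.1% for Gng4, 23.8% for Vwc2 and 28.4% for Fam19a2. In bulk RNA, fewer cells that express a gene and less RNA per cell cannot be told apart.

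**Figure D1:**
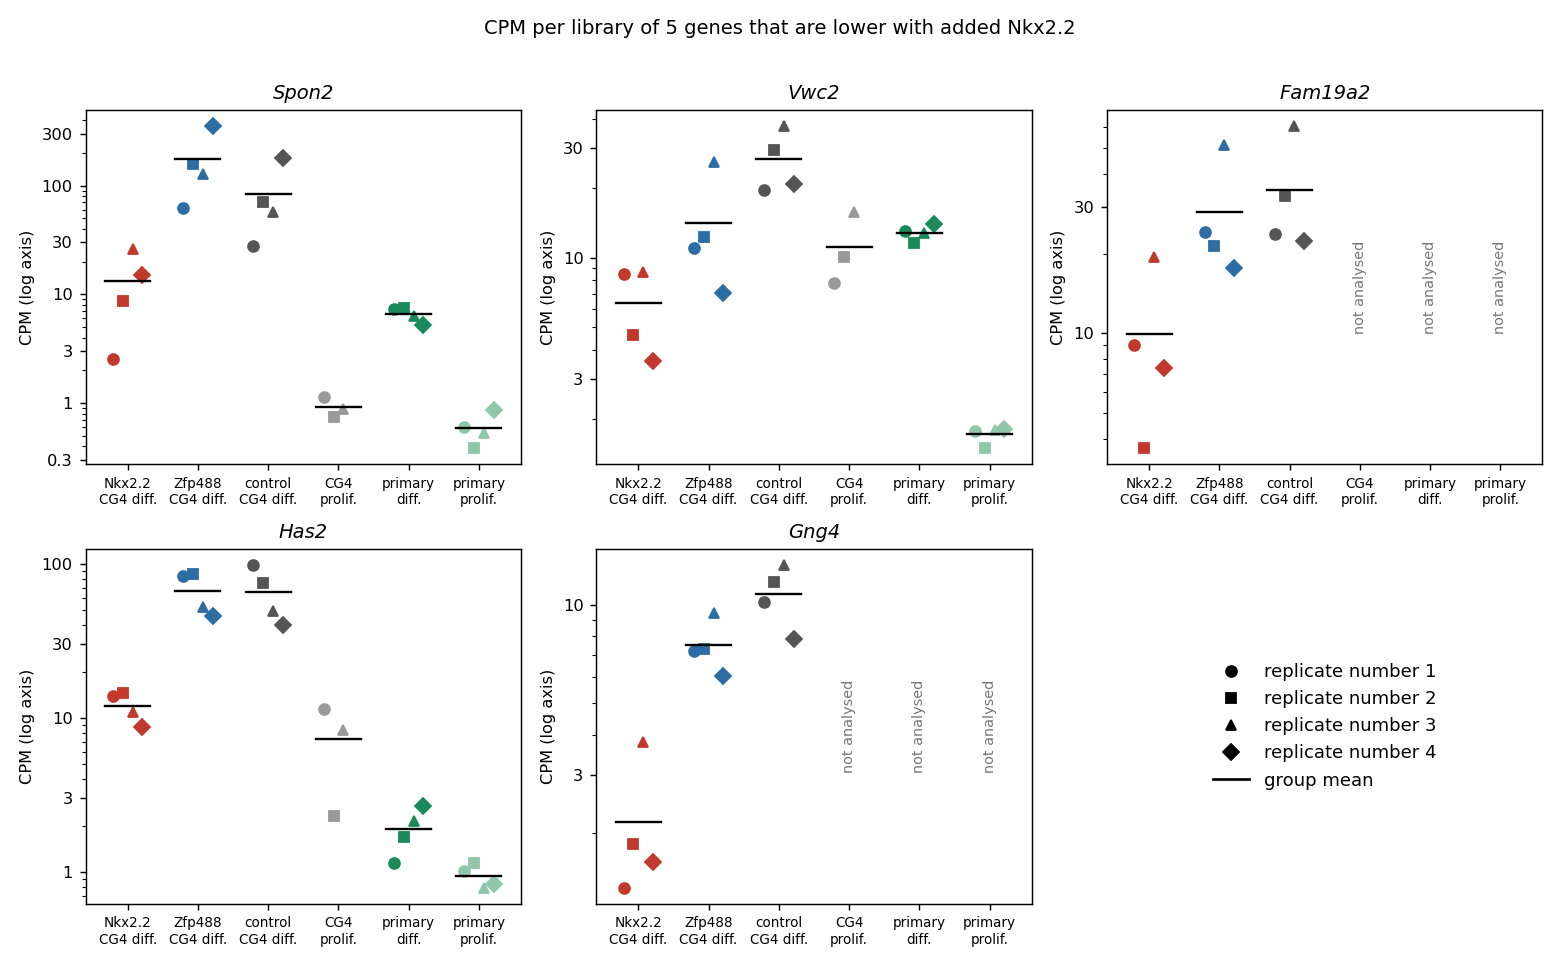
CPM of each gene (log axis) in each library of the 6 groups, with the marker shape giving the replicate number and the bar the group mean. For Spon2 the 4 Nkx2.2 libraries lay between 2.57 and 26.2 CPM and the 4 control libraries between 27.6 and 179 CPM, and proliferating libraries of both cell kinds lay at or below 1.13 CPM.

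Among the secreted proteins, Spon2 is a matrix protein of the F-spondin family with a thrombospondin type 1 repeat. In libraries 1 to 4 it had 2.57, 8.77, 26.2 and 15 CPM in Nkx2.2 cells, and 27.6, 70.2, 56.7 and 179 CPM in control cells. The highest Nkx2.2 library stood just under the lowest control library, and both groups were widely spread. The fitted log2 difference was -2.67 ± 0.73 (SE). Libraries of the same number moved together in these cells, and with the replicate number as a block the difference was -2.63 ± 0.37. Within a number, the log2 ratio to control lay between -3.58 and -1.11, with the smallest fall in number 3.

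Vwc2 encodes brorin, a secreted antagonist of bone morphogenetic proteins (BMPs) found in neural tissue. It had 8.54, 4.63, 8.68 and 3.57 CPM in Nkx2.2 cells, against 19.6, 29.2, 37.2 and 20.8 CPM in control cells. The groups stood apart, and the fitted log2 difference was -2.06 ± 0.40, or -2.09 ± 0.23 with the block. Within a number it lay between -2.66 and -1.20.

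Fam19a2 encodes a small chemokine-like secreted protein of the TAFA family, expressed mainly in brain. It had 9.07, 3.68, 19.5 and 7.43 CPM in Nkx2.2 cells, against 23.7, 32.9, 60.6 and 22.4 CPM in control cells. Library 3 was the highest in both groups, and its Nkx2.2 value came close to the lowest control value. The fitted log2 difference was -1.81 ± 0.50, and -1.88 ± 0.23 with the block, the smallest fall of the 5 genes. Within a number it lay between -3.16 and -1.39.

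Has2, the hyaluronan synthase, had 13.8, 14.4, 11.0 and 8.73 CPM in Nkx2.2 cells, against 98.0, 75.2, 49.7 and 40.4 CPM in control cells. Library 4 was the lowest in both groups, and the groups were far apart. The fitted log2 difference was -2.44 ± 0.30, or -2.40 ± 0.11 with the block. Its ratio to control was the most even of the 5 genes, from -2.82 to -2.18 on the log2 scale over the 4 numbers.

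Gng4, the G protein subunit, was the least abundant in control cells. It had 1.36, 1.85, 3.80 and 1.64 CPM in Nkx2.2 cells, against 10.2, 11.7, 13.2 and 7.84 CPM in control cells, from 50 to 112 and 348 to 536 counts per library. Library 3 was again the highest in both groups, and the groups were apart. The fitted log2 difference was -2.31 ± 0.30, and -2.37 ± 0.17 with the block, within a range of -2.91 to -1.80 over the numbers.

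Library 3 gave the highest level of Gng4, Vwc2 and Fam19a2 in Nkx2.2, Zfp488 and control cells alike. The same libraries had the lowest summed level of the astrocyte markers Gfap, Aldh1l1 and Slc1a2, with 194 CPM in Nkx2.2, 380 CPM in Zfp488 and 236 CPM in control cells. In the other libraries that sum was 1260 to 2278 CPM in Nkx2.2, 949 to 1707 CPM in Zfp488 and 743 to 2143 CPM in control cells. Nearly all of it was Gfap, whose lowest values were 193 CPM in Nkx2.2, 378 CPM in Zfp488 and 235 CPM in control cells. The summed oligodendroglial markers of library 3 were the highest of each group, with 17437 CPM in Nkx2.2, 30747 CPM in Zfp488 and 17991 CPM in control cells. The part of these marker levels in the levels of the 5 genes was not tested.

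Ranked by fitted fall among the 556 genes that fell (adjusted p under 0.05 in edgeR's quasi-likelihood test, mean of at least 5 CPM), Spon2 stood at 2, Has2 at 4, Gng4 at 6, Vwc2 at 11 and Fam19a2 at 14. Just inside that range stood Il13ra1 and Ntn4, both with a log2 difference of -1.85, and just outside it Galnt14 with -1.79 and Vgf and Mrgprf with -1.73. No gap separates the 5 genes from their neighbours in that order. The genes were chosen as large falls in this contrast, so their ranks follow from that choice and are no test.

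Zfp488 was compared with the same control libraries that chose the 5 genes, so its values share those libraries. None of the 5 genes passed the test in the fit without the block, in which 9.04% of the 14811 genes tested were called (edgeR quasi-likelihood test, Benjamini-Hochberg adjusted p under 0.05, two-sided). With the replicate number as a block, 3 of the 5 passed, Spon2 higher and Vwc2 and Gng4 lower, where 24.1% of all genes were called. Has2 and Fam19a2 passed in neither fit.

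Spon2 had 62.2, 158, 128 and 353 CPM in Zfp488 cells, in the same order of libraries as its 27.6, 70.2, 56.7 and 179 CPM in control cells. Every Zfp488 library was between 1.97 and 2.26 times its control library, while the groups as wholes overlapped. The log2 difference was 1.08 ± 0.69 (edgeR adjusted p = 0.361) without the block and 1.13 ± 0.33 (adjusted p = 0.0318) with it. Spon2 was thus lower in each Nkx2.2 library and higher in each Zfp488 library than in the control library of the same number.

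Vwc2 had 11.0, 12.3, 26.0 and 7.07 CPM in Zfp488 cells. All 4 libraries were under their own control library, at 0.340 to 0.700 of its level, and the groups overlapped. The log2 difference was -0.91 ± 0.39 (edgeR adjusted p = 0.165) without the block and -1.02 ± 0.22 (adjusted p = 0.00724) with it. Without Zfp488 library 3 the unblocked difference was -1.39 and passed, with an adjusted p of 0.0308.

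Gng4 had 7.22, 7.33, 9.46 and 6.03 CPM in Zfp488 cells. Each library stood at 0.625 to 0.768 of its control library. The log2 difference was -0.51 ± 0.28 (edgeR adjusted p = 0.287), and -0.50 ± 0.16 with the block (adjusted p = 0.0384).

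Fam19a2 had 24.1, 21.3, 51.5 and 17.6 CPM in Zfp488 cells, with ratios to the control library of 0.648 to 1.02. Has2 had 83.5, 85.9, 52.3 and 45.9 CPM, with ratios of 0.852 to 1.14. All Has2 values lay within the control range, and Fam19a2 was below it in libraries 2 and 4. The log2 difference was -0.27 ± 0.48 (edgeR adjusted p = 0.775) for Fam19a2 and 0.03 ± 0.28 (adjusted p = 0.959) for Has2. The 95% interval of the Has2 difference ran from -0.52 to 0.59 on the log2 scale, and that of Fam19a2 from -1.21 to 0.67.

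**Figure D2:**
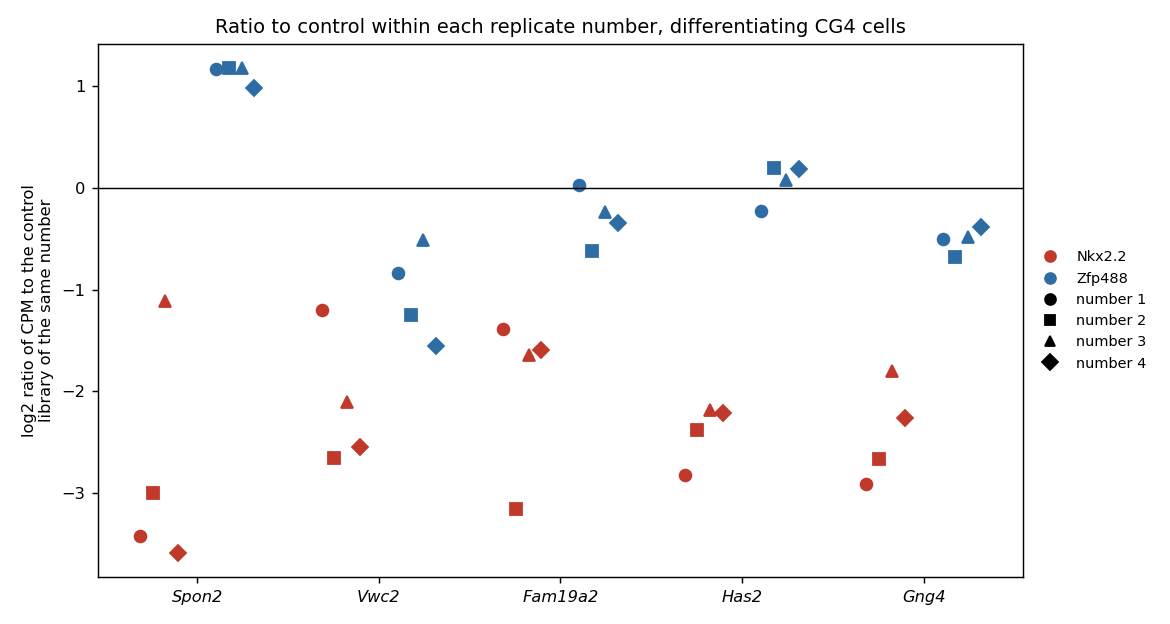
Log2 ratio of CPM to the control library of the same replicate number, for Nkx2.2 and Zfp488 libraries of differentiating CG4 cells, with the marker shape giving the number. All 20 Nkx2.2 ratios lie below 0, and with Zfp488 the 4 ratios of Spon2 lie between 0.98 and 1.17 while those of Vwc2 and Gng4 lie below 0.

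Set directly against Nkx2.2 cells, Zfp488 cells had higher levels of all 5 genes, which follows in part from the choice of the genes and has no test (25.3% of all genes tested differed between these groups). The log2 difference, Zfp488 over Nkx2.2, was 3.75 ± 0.76 for Spon2, 2.48 ± 0.30 for Has2, 1.81 ± 0.29 for Gng4, 1.54 ± 0.50 for Fam19a2 and 1.15 ± 0.40 for Vwc2. Ranges of the groups overlapped for Fam19a2 and Vwc2 and stood apart for the other genes. The endogenous Nkx2-2 level was itself lower in Zfp488 than in control cells (log2 -0.94 ± 0.20, edgeR adjusted p = 0.0140). Summed oligodendroglial markers were 17987 to 30747 CPM in Zfp488 cells, 7729 to 17437 CPM in Nkx2.2 cells and 11589 to 17991 CPM in control cells. Their part in these differences was not tested.

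The primary cells share no library with the contrast that chose the genes. Spon2, Vwc2 and Has2, the 3 genes listed there, all rose with differentiation of primary oligodendroglia. Of 12310 genes tested, 41.5% rose, 43.3% fell and 84.8% changed, so most genes changed and a rise was common. The differentiating primary libraries fell into 2 close pairs, 1 with 2 and 3 with 4, and the labels do not say what a pair shares. Values without the first or the other pair are therefore given too, an alternative chosen after seeing the data.

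Spon2 had 7.41, 7.47, 6.33 and 5.22 CPM in differentiating primary cells, against 0.605, 0.384, 0.527 and 0.859 CPM in proliferating ones. The groups were far apart, with a log2 difference of 3.48 ± 0.20 (edgeR adjusted p = 2.35e-08), and 3.29 and 3.66 without the first and the other pair. Its proliferating values rest on 11 to 32 counts per library.

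Vwc2 had 13, 11.5, 12.8 and 14 CPM in differentiating primary cells, against 1.78, 1.5, 1.80 and 1.82 CPM in proliferating ones. In primary cells its libraries were more even than those of Spon2 and Has2. The log2 difference was 2.93 ± 0.11 (edgeR adjusted p = 3.97e-10), and 3.01 and 2.90 without the first and the other pair.

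Has2 had 1.14, 1.69, 2.13 and 2.66 CPM in differentiating primary cells, against 1.01, 1.15, 0.791 and 0.832 CPM in proliferating ones. The lowest differentiating library stood just under the highest proliferating one, and the counts were 33 to 52 and 18 to 33 per library. The log2 difference was 1.02 ± 0.26 (edgeR adjusted p = 0.00392), and 1.39 and 0.64 without the first and the other pair (adjusted p = 5.21e-07 and 0.0197), with the higher levels in libraries 3 and 4. Fitted together with all 23 libraries it was 0.99 and did not pass, with an adjusted p of 0.0702.

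Nkx2-2 itself fell in the same cells. It averaged 66.5 ± 28.3 CPM in differentiating and 241 ± 8.29 CPM in proliferating primary cells (SD, n = 4 each; log2 -1.82 ± 0.25, edgeR adjusted p = 3.56e-05). Microglia and macrophage markers (Csf1r and Cd68 of the 6 on the list were named) summed to 17.9 to 24.1 CPM in differentiating and 442 to 461 CPM in proliferating primary cells. The fibroblast markers Col1a1 and Col3a1 summed to 5.54 to 10.6 CPM and 57.0 to 78.9 CPM in the same groups. Neuron markers summed to 164 to 179 CPM in differentiating and 256 to 267 CPM in proliferating cells. These 3 sums were thus lower where Spon2, Vwc2 and Has2 were higher. Syt1 of the neuron list went the other way, with a mean of 80.8 CPM in differentiating and 9.55 CPM in proliferating cells. The sums of the other 3 lists were higher there. Among their genes, Pdgfra (364 CPM in differentiating and 557 CPM in proliferating cells) and Egr2 (1.49 CPM and 7.93 CPM) were lower. Oligodendroglial markers summed to 86762 to 98396 CPM in differentiating and 4435 to 4754 CPM in proliferating cells. Astrocyte markers summed to 688 to 1577 CPM and 8.06 to 9.28 CPM, and Schwann cell markers to 325 to 535 CPM and 177 to 184 CPM, in the same groups. Most of the astrocyte sum in differentiating cells was Gfap, with a mean of 1072 CPM. The part of these lists in the rises was not tested.

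In CG4 cells, control cells after 3 days of differentiation were compared with proliferating wild-type cells. The control libraries are those used to choose the genes. The vector and read length (150 against 100 bases from each end) also differ between these groups and cannot be told apart from differentiation. All 3 genes rose, where 32.5% of 12486 genes tested rose and 65.8% changed.

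Spon2 had 27.6 to 179 CPM in control cells, against 1.13, 0.751 and 0.874 CPM in proliferating CG4 cells. Its mean was 90.9 times higher, with a log2 difference of 6.52 ± 0.74 (edgeR adjusted p = 0.000119). Control library 4 gave the 179 CPM, and the proliferating values of Spon2 rest on 24 to 47 counts per library. With the replicate block, which left out control library 4, the difference was 5.73 ± 0.45. Has2 had 40.4 to 98.0 CPM in control cells, against 11.4, 2.32 and 8.30 CPM in proliferating cells. It rose by 3.19 ± 0.56 on the log2 scale (edgeR adjusted p = 0.00125). Vwc2 had 19.6 to 37.2 CPM in control cells, against 7.77, 10.1 and 15.7 CPM in proliferating cells, and rose less, by 1.28 ± 0.32 (edgeR adjusted p = 0.00717).

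Control and proliferating CG4 libraries did not overlap for the 3 genes, in a comparison where 65.8% of all genes tested changed. The share of all genes without overlap was not computed here, so nothing is read from this. Nkx2-2 rose in this comparison, by 2.04 ± 0.36 on the log2 scale (edgeR adjusted p = 0.00134). It averaged 67.2 ± 34 CPM in proliferating CG4 cells (SD, n = 3). Spon2, Has2 and Vwc2 rose in both cell kinds, while Nkx2-2 fell in primary cells and rose in CG4 cells with the control vector. The part of Nkx2-2 in these rises was not tested. Astrocyte markers (3 of the 5 on the list were named) summed to 236 to 2143 CPM in control and 0.529 to 1.10 CPM in proliferating CG4 cells. Nearly all of the control sum was Gfap, with means of 1303 CPM in control and 0.177 CPM in proliferating cells. Aldh1l1 (0.408 CPM and 0 CPM) and Slc1a2 (1.03 CPM and 0.728 CPM) were low in both. Oligodendroglial markers summed to 11589 to 17991 CPM in control and 5052 to 7089 CPM in proliferating cells, and Schwann cell markers to 1234 to 1786 CPM and 350.1 to 588 CPM. Summed neuron markers were higher as well, at 150 to 340 CPM in control and 64.8 to 108 CPM in proliferating cells. The fibroblast sum was also higher, at 3.05 to 12.2 CPM and 0.125 to 0.607 CPM. Within these lists the means of Olig1, Olig2, Pdgfra, Cspg4, Rbfox3 and Snap25 were lower in control than in proliferating CG4 cells. Olig1 averaged 436 CPM in control and 1234 CPM in proliferating cells, and Snap25 0.529 CPM and 1.81 CPM. Microglia markers overlapped, at 3.78 to 8.79 CPM in control and 3.39 to 5.57 CPM in proliferating cells. The part of these lists in the rises was not tested.

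The size of the rise differed between the cell kinds for all 3 genes, where the difference passed for 69.3% of the genes tested, below 0 for 35.4% and above 0 for 33.8%. The CG4 response minus the primary response was 3.07 ± 0.76 for Spon2 (edgeR adjusted p = 0.00237) and 2.21 ± 0.65 for Has2 (adjusted p = 0.00717) on the log2 scale. For Vwc2 it was -1.61 ± 0.33 (adjusted p = 0.000554). Spon2 and Has2 thus rose more in CG4 cells and Vwc2 rose more in primary cells. Without the first and the other pair of primary libraries the difference was 3.27 and 2.91 for Spon2, 1.85 and 2.62 for Has2 and -1.67 and -1.55 for Vwc2, and each passed. For Nkx2-2 it was 3.90 ± 0.48 (adjusted p = 4.34e-06).

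**Figure D3:**
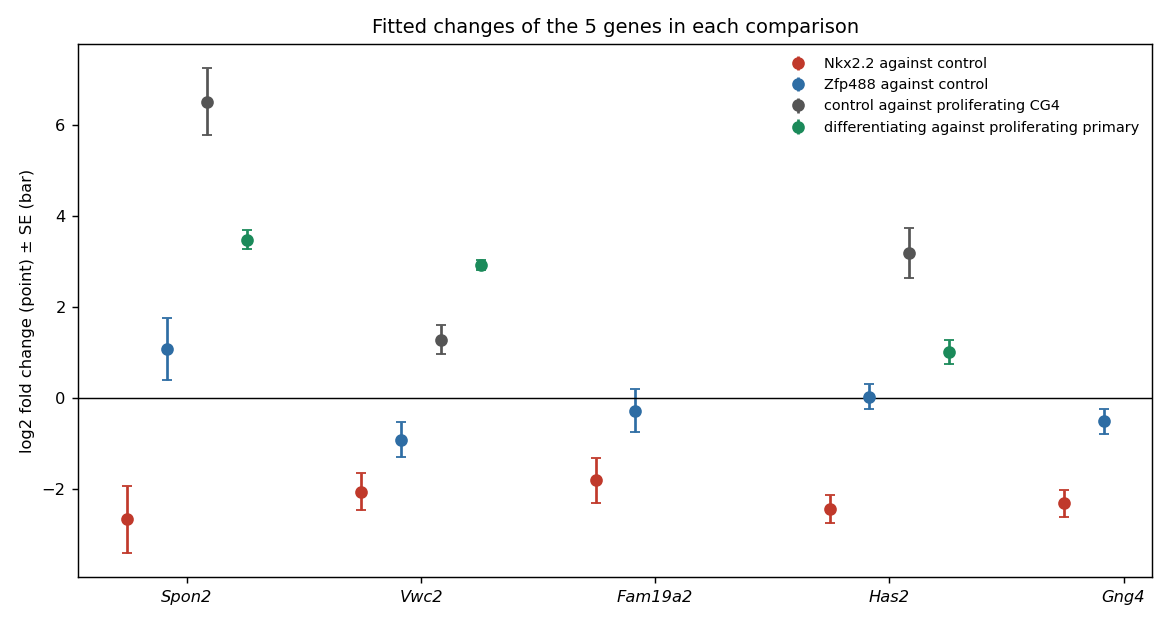
Fitted log2 fold change (point) with its SE (bar) of the 5 genes in each comparison, with the first-named group over the second. Each gene is below 0 for Nkx2.2 against control, and Spon2, Vwc2 and Has2 are above 0 in both differentiation comparisons, which were not analysed for Fam19a2 and Gng4.

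Across the 6 groups the order of the mean levels differed between genes. Spon2 averaged 13.1 ± 10.1 CPM in Nkx2.2, 175 ± 125 CPM in Zfp488 and 83.4 ± 66.3 CPM in control cells (SD, n = 4 each). It averaged 0.918 ± 0.194 CPM in proliferating CG4 (n = 3), 6.61 ± 1.06 CPM in differentiating primary and 0.594 ± 0.199 CPM in proliferating primary cells (n = 4 each). Neighbours in that order whose libraries overlapped were Zfp488 and control, Nkx2.2 and differentiating primary, and proliferating CG4 and proliferating primary cells. With added Nkx2.2 Spon2 stood 14.3 times above proliferating CG4 cells, and each of its 4 libraries was above all 3 of these.

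Has2 averaged 12 ± 2.65 CPM in Nkx2.2, 66.9 ± 20.7 CPM in Zfp488 and 65.8 ± 26.0 CPM in control cells. It averaged 7.35 ± 4.63 CPM in proliferating CG4, 1.91 ± 0.645 CPM in differentiating primary and 0.946 ± 0.166 CPM in proliferating primary cells. Nkx2.2 cells overlapped with proliferating CG4 cells, at 1.63 times their mean, and were apart from control cells. Each other neighbouring pair in the order of the means overlapped.

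Vwc2 averaged 6.36 ± 2.64 CPM in Nkx2.2, 14.1 ± 8.27 CPM in Zfp488 and 26.7 ± 8.19 CPM in control cells. It averaged 11.2 ± 4.09 CPM in proliferating CG4, 12.8 ± 1.02 CPM in differentiating primary and 1.73 ± 0.153 CPM in proliferating primary cells. In Nkx2.2 cells its mean was 0.567 times that of proliferating CG4 cells, with overlapping libraries. Proliferating primary cells were the one group apart from its neighbour in the order of means. In the 3 groups analysed, Gng4 averaged 2.16 ± 1.11 CPM in Nkx2.2, 7.51 ± 1.43 CPM in Zfp488 and 10.7 ± 2.29 CPM in control cells. Fam19a2 averaged 9.91 ± 6.76 CPM in Nkx2.2, 28.6 ± 15.5 CPM in Zfp488 and 34.9 ± 17.8 CPM in control cells.

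The genes whose pattern was most like each gene were found by the root mean square difference of log2 group means, each centred on its own mean. Over 6 groups and 11415 genes, Lgr4 (0.291), Sema3d (0.365) and Kctd4 (0.417) were nearest to Vwc2. Rgs22 (0.536), Pxylp1 (0.545) and Prr15 (0.578) were nearest to Has2, and Armc4 (0.703), Rhbdl2 (0.777) and Tppp3 (0.780) to Spon2. Over the 3 differentiating CG4 groups and 12661 genes, Clec18a (0.126), AABR07065531.3 (0.167) and Fam19a2 (0.179) were nearest to Gng4. Il13ra1 (0.0323), Clec18a (0.0607) and Mall (0.0800) were nearest to Fam19a2. Small values are easier to reach over 3 groups than over 6, so the sets of distances are not comparable. Both groups of the contrast that chose the genes are among the 3 and among the 6. Likeness to the chosen genes therefore follows in part from that choice, most of all over 3 groups, and is no test. The same holds for Fam19a2 standing near Gng4, as both were chosen on that contrast.

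Pathway partners of the 5 genes were taken from 5 lists and compared between Nkx2.2 and control cells by the same edgeR test, in which 10.6% of all genes were called, 6.10% higher and 4.48% lower. Of 61 partners measured, 7 rose (11.5%) and 3 fell (4.92%), so the share that fell was near that of all genes. With the replicate block 26.2% of all genes were called, which is the share to set beside the blocked counts of the lists. The median log2 difference of all genes tested was -0.01.

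Among hyaluronan genes other than Has2, 3 of 24 rose and none fell, with a median log2 difference of 0.18. With the block 5 rose and 2 fell, where 26.2% of all genes were called. Acan, the proteoglycan aggrecan, which binds hyaluronan, averaged 3118 ± 786 CPM in Nkx2.2 and 1343 ± 430 CPM in control cells (SD, n = 4 each; log2 1.23 ± 0.27, adjusted p = 0.0111). Hapln1, a link protein that ties proteoglycans to hyaluronan, averaged 565 ± 116 CPM in Nkx2.2 and 313 ± 64.1 CPM in control cells (log2 0.87 ± 0.19, adjusted p = 0.0112). The other synthases were low in both groups. Has1 averaged 1.04 ± 0.203 CPM in Nkx2.2 and 1.32 ± 0.260 CPM in control cells (adjusted p = 0.334), and Has3 2.38 ± 0.388 CPM and 2.5 ± 0.234 CPM (adjusted p = 0.889). The third call, Hapln3, was under 1 CPM on average in both groups and had adjusted p of 0.0853 to 0.137 without control library 1, 2 or 3 or Nkx2.2 library 2 or 4, and 0.0519 without Zfp488 library 4.

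Among spondins and proteins with thrombospondin type 1 repeats other than Spon2, 2 of 8 fell and 2 rose, and with the block also 2 fell and 2 rose (median -0.04). Spon1 (F-spondin), the nearest relative of Spon2 on the list, had 64.5 to 96.3 CPM in Nkx2.2 and 135 to 254 CPM in control cells, with no overlap. It fell by 1.40 ± 0.23 on the log2 scale (adjusted p = 0.00218). Rspo2, a secreted enhancer of Wnt signalling, had 8.95 to 16.9 CPM in Nkx2.2 and 19.6 to 40.5 CPM in control cells and fell by 1.05 ± 0.24 (adjusted p = 0.0133). Thbs1 (thrombospondin 1) and Ism2 rose at low levels. Thbs1 averaged 1.80 CPM in Nkx2.2 and 0.234 CPM in control cells (adjusted p = 0.000695), and Ism2 1.00 CPM in Nkx2.2 and 0.396 CPM in control cells (adjusted p = 0.0104).

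Among BMP antagonists and modulators other than Vwc2, 2 of 14 rose and none fell, and with the block 4 rose and 1 fell (median 0.06). Chrd (chordin), another secreted BMP antagonist, had 4.34 to 8.54 CPM in Nkx2.2 and 1.19 to 3.37 CPM in control cells. It rose by 1.49 ± 0.31 on the log2 scale (adjusted p = 0.00891). Nell2, a secreted protein with the same kind of von Willebrand factor C domain, had 128 to 135 CPM in Nkx2.2 and 63.8 to 78.7 CPM in control cells (log2 0.88 ± 0.09, adjusted p = 7.81e-05). These partners of Vwc2 moved opposite to it.

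Among G protein beta and gamma subunits other than Gng4, 1 of 11 fell and none rose, and with the block 2 fell and 1 rose (median -0.18). Gnb4, a beta subunit, averaged 33.9 ± 2.66 CPM in Nkx2.2 and 47.4 ± 6.85 CPM in control cells (log2 -0.47 ± 0.10, adjusted p = 0.0118). Among the TAFA family and the neurexins, which TAFA proteins bind, none of 4 passed in this fit, and with the block, where 26.2% of all genes were called, 2 fell and none rose (median -0.33).

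**Figure D4:**
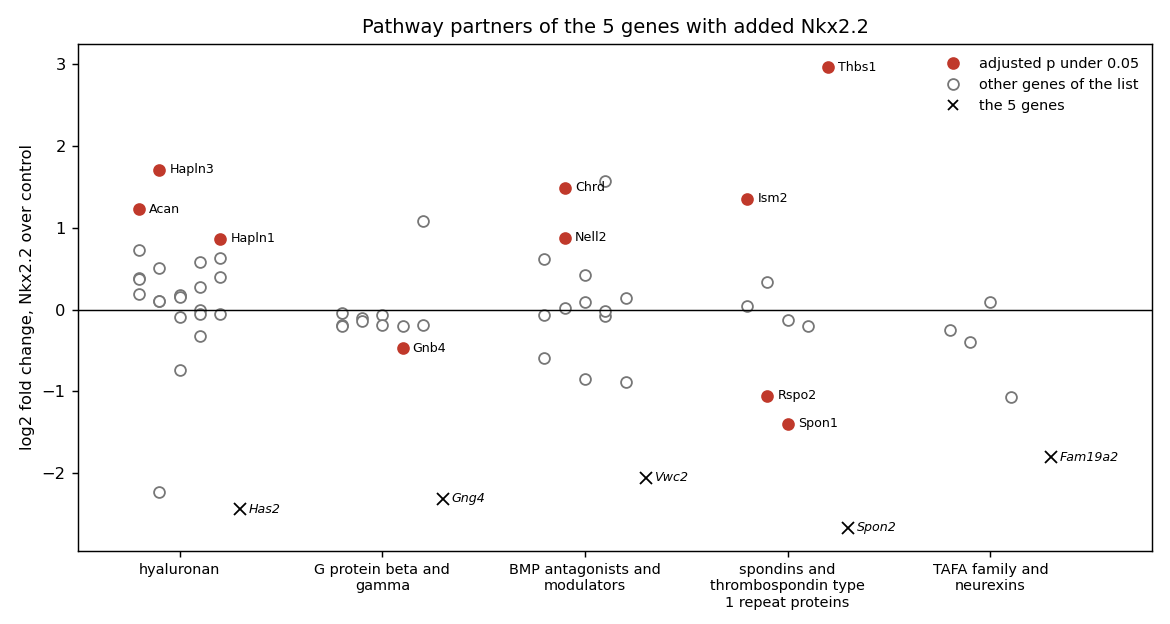
Log2 fold change, Nkx2.2 over control, of the genes on 5 pathway lists (circles, filled where the adjusted p was under 0.05) and of the 5 genes (crosses). Each cross lies below the circles of its own list, which follows from the choice of the 5 genes as large falls in this contrast and is no test. Among the filled circles Spon1, Rspo2 and Gnb4 lie below 0.

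With Zfp488 the same lists gave 6 rises and 1 fall against control, where 5.89% of all genes rose and 3.15% fell. Of the spondin group, 3 of 8 rose (median 0.31), and with the block 3 rose and none fell, where 24.1% of all genes were called. Rspo2 was among them, with 42.1 to 65.7 CPM in Zfp488 and 19.6 to 40.5 CPM in control cells (log2 1.01 ± 0.23, adjusted p = 0.0209). Its adjusted p was 0.0545 to 0.0605 without control library 2, 3 or 4 or Zfp488 library 2 or 4. Thsd7a averaged 3.94 CPM in Zfp488 and 1.73 CPM in control cells (adjusted p = 0.0370, and 0.0514 to 0.0906 without 8 of the 12 libraries in turn). Thsd1 averaged 3.10 CPM in Zfp488 and 2.23 CPM in control cells (adjusted p = 0.0417, and above 0.05 without 10 of the 12 libraries in turn). Spon1 had 113 to 218 CPM in Zfp488 cells, overlapping with control cells.

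Of the hyaluronan group, 1 of 24 rose and 1 fell with Zfp488, and with the block 6 rose and 2 fell, where 24.1% of all genes were called. Hapln1 averaged 187 ± 33.8 CPM in Zfp488 and 313 ± 64.1 CPM in control cells (log2 -0.73 ± 0.19, adjusted p = 0.0314). Its adjusted p was 0.0536 to 0.0982 without control library 1, 2 or 3 or Zfp488 library 2 or 4. Lyve1, a hyaluronan receptor, was at 1.71 CPM in Zfp488 and 0.438 CPM in control cells (adjusted p = 0.0417, and 0.0540 to 0.137 without 7 of the 12 libraries in turn). Gng12 averaged 170 ± 20.5 CPM in Zfp488 and 124 ± 12.9 CPM in control cells (log2 0.46 ± 0.10, adjusted p = 0.0171), and its adjusted p was 0.0631 without Zfp488 library 4. Nrxn2 averaged 516 ± 8.11 CPM in Zfp488 and 413 ± 33.9 CPM in control cells (log2 0.33 ± 0.08, adjusted p = 0.0234, and 0.0577 to 0.0713 without 5 of the 12 libraries in turn). None of 14 BMP antagonists passed in this fit, and with the block 1 rose and 1 fell. Of the G protein subunits 1 rose and 1 fell with the block, and of the TAFA family and neurexins 2 rose and none fell.

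In primary differentiation 24 of 51 partners rose (47.1%) and 22 fell (43.1%), where 41.5% of all genes rose and 43.3% fell. In CG4 differentiation 20 of 55 rose (36.4%) and 16 fell (29.1%), where 32.5% of all genes rose and 33.2% fell. The shares of the partners were near those of all genes, and the counts for single lists that follow are to be read against the same shares. In primary cells 5 of 11 BMP antagonists other than Vwc2 rose and 3 fell. Nog (noggin) averaged 27.0 ± 3.72 CPM in differentiating and 0.816 ± 0.234 CPM in proliferating primary cells (SD, n = 4 each; log2 5.06 ± 0.17, adjusted p = 2.56e-10). It also rose in CG4 cells, with 29.6 ± 13.9 CPM in control and 1.25 ± 0.841 CPM in proliferating cells (adjusted p = 0.000392), where 4 of 13 rose and 3 fell. Nog and Vwc2 thus rose in both cell kinds, while Crim1, a membrane-bound BMP modulator, fell in both (log2 -1.03 ± 0.07 in primary and -1.90 ± 0.23 in CG4 cells).

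Of the spondin group, 3 of 8 rose and 5 fell in primary cells, where 84.8% of all genes changed, and 2 of 8 rose and 2 fell in CG4 cells, where 65.8% changed. Spon1 fell in primary cells, to 165 ± 4.00 CPM in differentiating cells, against 423 ± 6.01 CPM in proliferating ones (adjusted p = 3.87e-11), opposite to Spon2. Sspo (SCO-spondin) rose in both, by 3.57 ± 0.12 in primary and 3.06 ± 0.43 in CG4 cells on the log2 scale. Rspo2 averaged 27.6 ± 9.04 CPM in control and 0.291 ± 0.126 CPM in proliferating CG4 cells (log2 6.58 ± 0.42, adjusted p = 5.98e-06). In primary cells it averaged 1.83 ± 0.678 CPM in differentiating libraries and had no counts in the proliferating ones.

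Of the hyaluronan group, 8 of 19 rose and 10 fell in primary cells (all genes 41.5% and 43.3%), and 10 of 20 rose and 6 fell in CG4 cells (all genes 32.5% and 33.2%). Bcan (brevican) averaged 1201 ± 103 CPM in differentiating and 158 ± 5.32 CPM in proliferating primary cells (adjusted p = 6.00e-12). Cemip, which takes part in hyaluronan breakdown, averaged 0.623 ± 0.166 CPM in differentiating and 22.8 ± 0.781 CPM in proliferating primary cells (adjusted p = 1.33e-11). Stab1, a hyaluronan scavenger receptor of macrophages, averaged 10.7 ± 2.73 CPM and 304 ± 19.7 CPM in these groups, next to the drop in microglia markers given above, whose part was not tested. In CG4 cells Acan averaged 1343 ± 430 CPM in control and 129 ± 88.2 CPM in proliferating cells (adjusted p = 0.000895). Hmmr, a hyaluronan-binding protein of dividing cells, averaged 26.0 ± 3.94 CPM in control and 195 ± 34.4 CPM in proliferating CG4 cells (adjusted p = 3.77e-06).

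Of the G protein subunits, 7 of 10 rose and 3 fell in primary cells, and 3 of 10 rose and 4 fell in CG4 cells, again where 84.8% and 65.8% of all genes changed. Gnb4 rose in primary cells, with 128 ± 4.32 CPM in differentiating and 37.8 ± 2.28 CPM in proliferating cells (adjusted p = 4.14e-11). It fell in CG4 cells, with 47.4 ± 6.85 CPM in control and 141 ± 20.3 CPM in proliferating cells (adjusted p = 7.05e-05). Of the TAFA family and neurexins, 1 of 3 rose and 1 fell in primary cells, and 1 of 4 rose and 1 fell in CG4 cells. That fall was Fam19a4, with 0.522 CPM in control and 2.62 CPM in proliferating CG4 cells (adjusted p = 0.0187). It did not pass with the replicate block (adjusted p = 0.0774), nor without control library 2 (0.0508) or 4 (0.0531) or proliferating library 3 (0.0620). Fam19a5, a relative of Fam19a2, rose in both, by 1.21 ± 0.07 in primary (adjusted p = 2.10e-08) and 1.27 ± 0.10 in CG4 cells (adjusted p = 1.91e-05) on the log2 scale.

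In the authors' deposited tables the log2 fold changes with Nkx2.2 were -2.65 for Spon2, -2.44 for Has2, -2.31 for Gng4, -2.06 for Vwc2 and -1.80 for Fam19a2. With Zfp488 the authors' deposited table gave 1.09 for Spon2 (adjusted p = 0.355), -0.91 for Vwc2 (adjusted p = 0.0705) and -0.50 for Gng4 (adjusted p = 0.0784). In the same authors' deposited table Has2 had 0.04 (adjusted p = 0.961) and Fam19a2 -0.27 (adjusted p = 0.725).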

How the data were processed

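RNA of 23 rat samples had been sequenced from both ends of the fragments, and each deposited file gives the raw read counts of 1 library. Per the submitters' processing notes, reads were trimmed and aligned with tools that include Trimmomatic 0.36 and STAR 2.5.2b and counted with featureCounts (Subread 1.5.2) on rn6. Which annotation was used, whether strand counted and how reads with several matches were handled is not given in the sources used here. RefSeq has 1 gene that overlaps Has2 and 2 that overlap Vwc2, so their counts could hold reads of those. The authors' deposited tables give log2 fold changes, p-values (raw and adjusted) and a normalized signal, which by its values is a count divided by 1 size factor per library. They name 14690 identifiers.

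The tests used edgeR 4.0.16 under R 4.3.3, with TMM, filterByExpr, two-sided quasi-likelihood tests and Benjamini-Hochberg adjustment (calls at 0.05). One model held the 12 libraries of differentiating CG4 cells. Primary differentiation used the 8 primary libraries, CG4 differentiation the control and proliferating CG4 libraries, and the interaction both sets. CPM are on 1 TMM scale over all 23 libraries. Intervals cover the spread of the fit. The procedure was tested on simulated data.

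The 5 genes and all lists were chosen with earlier results of these data known. The lists were hyaluronan, G protein beta and gamma, BMP antagonists, spondins and thrombospondin repeats, TAFA and neurexins, and markers of oligodendroglia, astrocytes, microglia, fibroblasts, neurons and Schwann cells. Named are up to 4 genes per list and comparison with the smallest adjusted p, the 3 genes most like each gene with a mean of at least 1 CPM, and the 3 genes on each side of the last rank, of which a part is given. A further list gene is not reported here. Values for Has1 and Has3 were added as the other synthases. Likeness for Gng4 and Fam19a2 used the 3 groups that list them, not 6 as planned.

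As a check of pairing, each library's deviation from its group mean was correlated with that of the library of equal number. This gave 0.176 to 0.586 for Nkx2.2 with control and 0.224 to 0.755 for Zfp488 with control, every pair over 0.1, so the numbers are taken to pair these libraries. The labels do not state what a shared number stands for. In primary cells (-0.0426 to 0.0955) and for control with proliferating CG4 cells (-0.133 to 0.0418) the numbers did not pair. Differentiating primary libraries formed close pairs, 1 with 2 and 3 with 4. Summed neuron markers were 152 to 208 CPM in Nkx2.2, 342 to 517 CPM in Zfp488 and 150 to 340 CPM in control cells, and Schwann cell markers 1023 to 1592 CPM, 1370 to 1797 CPM and 1234 to 1786 CPM in these. Within the neuron list the means of Tubb3 (370 CPM in Zfp488 and 115 CPM in control cells) and Snap25 (1.17 CPM and 0.529 CPM) were higher with Zfp488. Those of Syt1 (67.6 CPM and 119 CPM) and Rbfox3 (0.866 CPM and 0.882 CPM) were lower. Microglia markers were at most 8.79 CPM and fibroblast markers at most 34.4 CPM in the 3 groups.

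Results were recomputed with RLE size factors, without the filter, with DESeq2 1.42.0, with the replicate block, with other sets of libraries in the fit and with each library left out in turn. Leaving out either close pair of the differentiating primary libraries was added after seeing the data.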

Additional observations from a re-analysis of the deposited data

Results flagged for a closer look

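Vwc2 had 1.5 CPM in proliferating primary library 2, set apart by its gap to the other 3 libraries (1.78 to 1.82 CPM) relative to the range of its group. This was the 1 such value among 21 groups of libraries checked, where chance gives about 1 in 20.

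The differentiation response, CG4 minus primary, passed the interaction test for Spon2 (3.07 on the log2 scale), Has2 (2.21) and Vwc2 (-1.61). In CG4 cells the compared groups also differ in vector and read length, which cannot be told apart from differentiation.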

How the results depend on the processing

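All values are log2 differences or numbers of genes called. The fall with Nkx2.2 kept its sign for each of the 5 genes under every alternative. The genes were chosen as large falls in this contrast, so the kept sign and the ranges that follow are a description only. Leaving out 1 library in turn gave -3.25 to -1.97 for Spon2, -2.62 to -2.19 for Has2, -2.72 to -2.14 for Gng4, -2.24 to -1.86 for Vwc2 and -2.36 to -1.41 for Fam19a2. The number of genes called with Nkx2.2 was 1567, 3876 with the replicate block, and 924 to 2302 with 1 library left out (974 without Nkx2.2 library 2 and 924 without library 4). With Zfp488 it was 1339, 3576 with the block, 2136 with DESeq2, and 458 to 1604 with 1 library left out (877, 800 and 669 without control library 1, 2 and 3, and 620 and 458 without Zfp488 library 2 and 4). For the genes with Zfp488 the block gave a call for Spon2 (1.13), Gng4 (-0.50) and Vwc2 (-1.02). With 1 library left out, Vwc2 was -1.39 to -0.69, Spon2 0.49 to 1.78, Gng4 -0.64 to -0.40, Fam19a2 -0.72 to 0.13 and Has2 -0.14 to 0.29. The sign turned for Fam19a2 without control library 3 (0.13), and for Has2 without control library 3 (-0.08) or 4 (-0.14) or Zfp488 library 1 (-0.09) or 2 (-0.11). In primary cells Has2 was 0.99 and missed the threshold with all 23 libraries in the fit. In both differentiation comparisons and their difference the replicate block changed no call of Spon2, Vwc2 or Has2. Where proliferating CG4 cells were in the fit, the block left out control library 4. Has3 with Nkx2.2 turned sign near 0 without control library 2 (0.0046) or Nkx2.2 library 3 (0.0053) or 4 (0.00086), within -0.16 to 0.0053 for 1 library left out. Of 72 results for list genes, 59 kept their call under each alternative. For the changes above the cause was not tested, except that leaving out libraries leaves fewer samples. Depth limits Spon2 and Has2 in proliferating primary cells, at 11 to 33 counts per library.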
